A study of Mus musculus and Homo sapiens with 10 samples.

Results

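The Alu and SVA repeats of the human genome were examined in RNA-seq libraries of human embryonic stem cells (hESCs) given vitamin C (vitC). Every row of the deposited repeat table whose name began with Alu, FLAM, FRAM, FAM or SVA_ was taken, which gave 60 of its 1355 subfamilies. These were 28 AluY, 17 AluS and 4 AluJ subfamilies, 4 monomers, 6 SVA subfamilies and 1 row named Alu with no subfamily. The study asked whether vitC changes the expression of transposable elements in embryonic stem cells, mostly in mouse cells that are not used here. The human arm held 1 control library and 1 library from cells given vitC at 100 µg/ml for 24 h. Both came from H9, an established hESC line. Their medium of KSR and FGF is one that the study describes for primed H9-NK2 cells, an H9 derivative in which doxycycline switches on added KLF2 and NANOG genes linked to Venus, and the labels do not say whether the cells carried these transgenes. With 1 library per group there was no replicate, so no test between conditions was possible, and each interval below covers counting error only.

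Alu elements are short interspersed repeats of primates that arose from 7SL RNA, the RNA of the signal recognition particle. A full element joins a left and a right monomer and carries an internal promoter for RNA polymerase III. AluJ is the oldest lineage, AluS is of middle age, and AluY holds the youngest subfamilies, of which AluYa5 and AluYb8 are known for recent insertions. FLAM, FRAM and FAM are free left, right and older monomers that preceded the joined form. SVA elements are composite repeats of hominoids that hold an Alu-like part, a tandem repeat and a part derived from an endogenous retrovirus. Neither Alu nor SVA encodes a protein for its own insertion, and both are moved by the proteins of LINE-1 (L1). Most Alu copies lie within genes, and the subfamily counts do not separate reads of an element's own transcript from reads of a host transcript.

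The repeat table held 507528 expected counts for the control and 549711 for vitC, which were 5.84% and 5.80% of the aligned library sizes. Uniquely mapped reads made up 93.9% and 93.8% of them. In the gene table, all 6 markers of core pluripotency and all 6 of primed hESCs had at least 100 reads in the 2 libraries together. Of 6 naive markers, KLF17 and DPPA5 were at 0, DPPA3, TFCP2L1 and SUSD2 had at most 45 reads in a library, and KLF4 had 82 in the control and 105 with vitC. Of 5 fibroblast markers fixed to look for feeder cells, 4 had reads, and COL1A1 and COL1A2 held most of them. The fibroblast list summed to 24747 reads in the control and 25582 with vitC, a log2 ratio of shares of gene reads of -0.11 (-0.14 to -0.09), with DCN at 0 in both libraries. The 6 markers of early lineages summed to 259 and 381 reads, a log2 ratio of 0.40 (0.16 to 0.63). PAX6 held 75 and 164 of these reads. Without PAX6 the other 5 summed to 184 and 217 reads, a log2 ratio of 0.08 (-0.21 to 0.37). The part of such cells in any value below was not tested, and in bulk RNA fewer cells of a type cannot be told apart from less RNA per cell.

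Alu and SVA made up a large part of all repeat counts, and that part was nearly equal in the 2 libraries. Together they held 36.9% of repeat counts in the control and 37.1% with vitC. Alu alone held 184717 counts in the control and 201236 with vitC, which was 81.4% and 81.2% of all SINE counts. AluS contributed 63.1% of the counts of the whole set over both libraries, AluJ 23.6%, AluY 8.75%, the monomers 3.19% and SVA 1.31%. Each group apart from AluS was carried by 1 or a few rows. The AluY row itself made up 81.1% of AluY counts, AluJb 44.9% of AluJ, FLAM_C 51.7% of the monomers and SVA_D 47.3% of SVA, whereas AluSx1, the highest of AluS, made up 18.5% of its group.

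Levels were compared between groups by the deposited FPKM per 1000 annotated copies. The length used for these FPKM is not stated. In the control, the counts and FPKM imply 249 to 295 bases for the monomers and up to 373 bases for AluY rows. For SVA they imply 454 to 1030 bases. The order of groups thus rests on lengths that could not be checked. The implied length also differed between the libraries. For SVA_C the log2 ratio, vitC over control, was 0.02 with the aligned library size as denominator and -0.15 by FPKM. A ratio of FPKM between the libraries thus holds a change of implied length as well as of counts. Summed over its subfamilies, SVA had the highest level per copy in both libraries, with 67.6 FPKM per 1000 copies in the control and 67.9 with vitC. AluS followed with 58.6 and 57.5. The monomers, at 53.0 and 51.4, and AluJ, at 51.3 and 51.1, lay close together. AluY was lowest, with 43.3 in the control and 41.3 with vitC. The youngest Alu lineage thus had the lowest level per annotated copy in both libraries, while AluJ and AluS stood above it. The median over subfamilies placed SVA, at 54.3 and 51.5, below AluS, at 56.8 and 56.3, while AluY remained lowest, at 38.1 and 40.7. No spread over replicates was at hand to rank neighbours in this order.

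In SVA, AluY and the monomers the subfamilies differed more in level per copy than the groups did. Among SVA, which run from SVA_A, the oldest, to SVA_F, one of the youngest, the control had 33.6 FPKM per 1000 copies for SVA_A, 38.9 for SVA_B, 65.3 for SVA_C, 95.9 for SVA_D, 43.3 for SVA_E and 103 for SVA_F. By this measure SVA_D and SVA_F were the high members, and SVA_E, which is also young, was not among them. The place of SVA_F depended on its implied length of 454 bases in the control. By counts per 1000 copies, with no scaling for length, SVA_D had 781 in the control, SVA_C 584 and SVA_F 407. The 17 AluS subfamilies ran from 44.8 for AluSc5 to 67.8 for AluSg, with a median of 56.8. The 4 AluJ subfamilies ran from 43.97 for AluJr4 to 54.7 for AluJb. Of the monomers, FAM stood at 87.2, FLAM_C at 58.1, FLAM_A at 42.2 and FRAM at 38.4. Over the 15 AluY subfamilies with at least 100 counts in the 2 libraries together, the level ran from 28.5 for AluYc to 107 for AluYh3a3, with a median of 38.1. AluYa5 and AluYb8, at 36.8 and 37.6, lay near that median. The order of levels was close to the same in both libraries, with a Spearman correlation of 0.95 over 46 subfamilies, given as a description since the libraries share the annotation and the line.

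The uniquely mapped part of the counts was lowest for SVA as a group and varied widely among AluY subfamilies. Uniquely mapped reads made up 96.0% of AluJ counts, 95.8% of AluS counts, 96.2% of monomer counts, 93.7% of AluY counts and 82.1% of SVA counts. Among the 15 AluY subfamilies the highest was AluYm1 with 97.4%, and the lowest were AluYh3a3 with 56.2% (exact 95% interval 48.8 to 63.7), AluYa5 with 70.2% (66.6 to 73.8) and AluYb8 with 77.3% (73.6 to 80.6). Among SVA the uniquely mapped part was 53.9% for SVA_E (48.9 to 59.0), 76.5% for SVA_F, 84.2% for SVA_D, 85.3% for SVA_B, 90.0% for SVA_C and 93.8% for SVA_A. For SVA_E and AluYh3a3, a large part of the value thus came from reads that were shared out among copies.

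**Figure D1:**
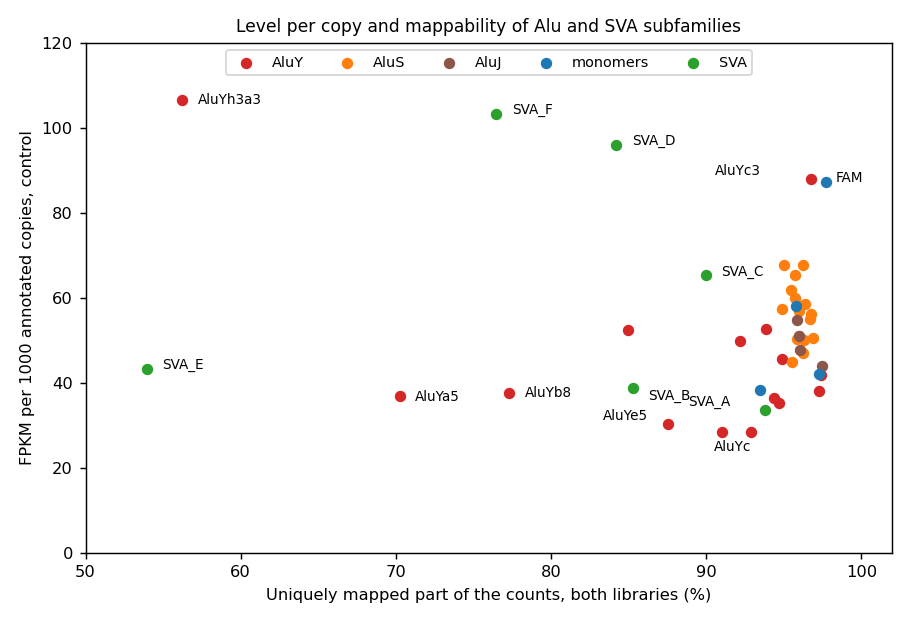
Each point is 1 of 46 Alu or SVA subfamilies with at least 100 counts, placed by the uniquely mapped part of its counts in both libraries (x axis, %) and its FPKM per 1000 annotated copies in the control (y axis), coloured by group. AluS and AluJ cluster near 96% unique, while SVA_E (53.9%), AluYh3a3 (56.2%), AluYa5 (70.2%) and SVA_F (76.5%) lie far to the left.

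The groups were then compared between control and vitC as shares of all repeat counts in each library. AluY held 16416 counts in the control and 17811 with vitC, or 3.23% and 3.24% of repeat counts, a log2 ratio of 0.00 (95% counting interval -0.03 to 0.03). AluS held 118274 and 128456 counts, or 23.3% and 23.4%, a log2 ratio of 0.00 (-0.01 to 0.02). AluJ held 43923 and 48548 counts, or 8.65% and 8.83%, a log2 ratio of 0.03 (0.01 to 0.05). AluJ was the group whose counting interval left out 0, and its share was 1.02-fold higher with vitC. By the deposited FPKM per 1000 copies AluJ was not higher, at 51.3 in the control and 51.1 with vitC. On that measure the median log2 ratio of all subfamilies compared was -0.03. The monomers held 6078 and 6410 counts, or 1.198% and 1.17%, a log2 ratio of -0.04 (-0.09 to 0.01). SVA held 2465 and 2642 counts, or 0.486% and 0.481%, a log2 ratio of -0.02 (-0.09 to 0.06). AluY without the AluY row, which leaves the named younger subfamilies, had a log2 ratio of 0.04 (-0.03 to 0.11).

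**Figure D2:**
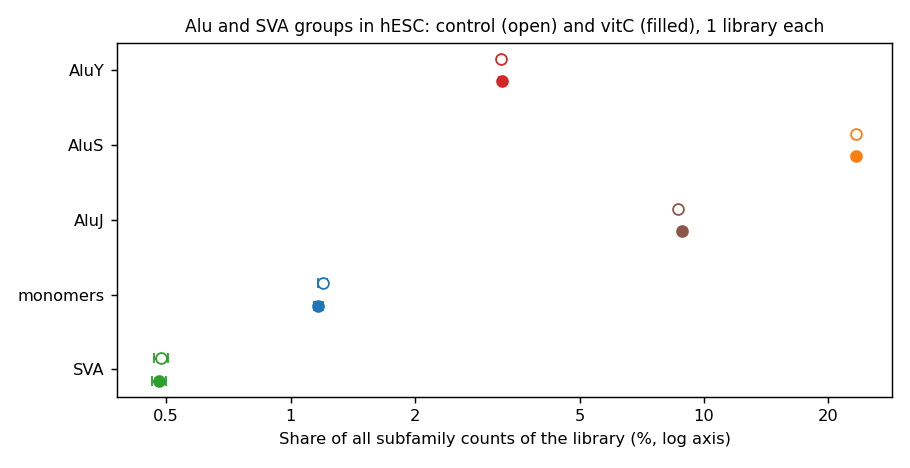
Share of all repeat counts of the library (x axis, %, log scale) for each group in the control (open) and vitC (filled) library, with bars for the exact 95% counting interval where wider than the point. The pair of points of each group lie nearly on top of each other, from 0.486% and 0.481% for SVA to 23.3% and 23.4% for AluS.

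Set against each other within the libraries, the groups differed by no more than 0.07 on the log2 scale. AluY changed against AluS by 0.00 (95% interval of the log odds, normal approximation to the counts, -0.03 to 0.03) and against AluJ by -0.03 (-0.06 to 0.01). AluS was lower with vitC against AluJ by 0.03 on the log2 scale, with an interval that left out 0. The monomers, which are the oldest members, were lower against AluJ, with a difference of -0.07 (-0.12 to -0.01). SVA against all Alu differed by -0.02 (-0.10 to 0.06). Among other repeats of the same libraries, MIR, an older SINE family, had a log2 ratio of 0.03 (0.01 to 0.05), close to that of AluJ, and AluJ against MIR differed by 0.00 (-0.02 to 0.03). L1, summed over all its 132 subfamilies, had a log2 ratio of -0.03 (-0.04 to -0.01). L1 proteins move Alu and SVA, but this sum does not separate young L1 from old L1. Alu against L1 differed by 0.03 (0.02 to 0.05), and SVA against L1 by 0.01 (-0.07 to 0.09).

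**Figure D3:**
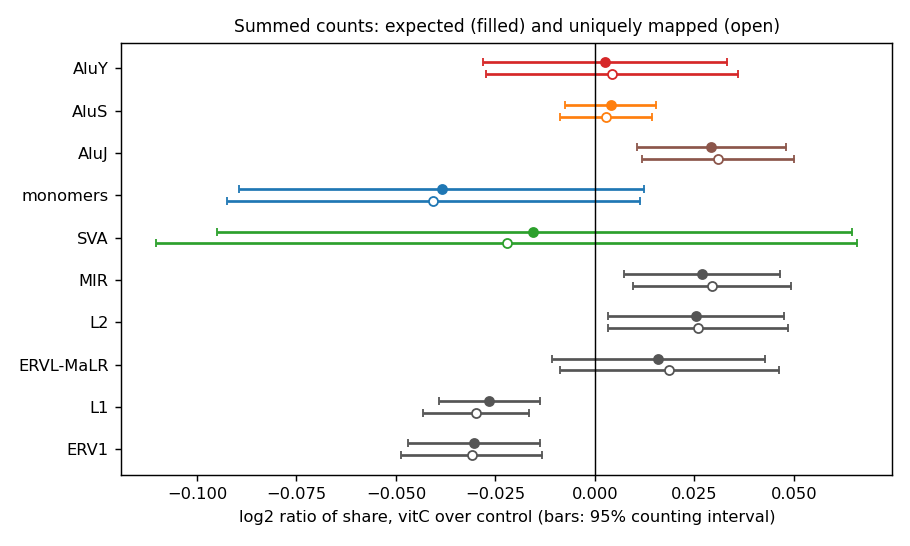
Log2 ratio of the share of repeat counts, vitC over control (x axis), for the 5 Alu and SVA groups and 5 other repeat families, from expected counts (filled) and uniquely mapped counts (open), with bars for the 95% counting interval. AluJ (0.03), MIR (0.03) and L2 (0.03) lie to the right of 0, L1 (-0.03) and ERV1 (-0.03) to the left, and the bars of AluY, AluS, the monomers and SVA cross 0.

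Single subfamilies were compared where the 2 libraries together held at least 100 counts, which 46 of the 60 reached. The 14 others were 13 AluY rows and the row named Alu. Of those, AluYb10, AluYb11 and AluYb8a1, with 9, 2 and 8 annotated copies, had no count in either library, which allows a share of up to 0.000591% in the control and 0.000546% with vitC. The other 11 held at most 70 counts each, and the row named Alu had 26 in the control and 12 with vitC.

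Of the 46, 3 had a share at least 1.2-fold higher with vitC and 2 a share at least 1.2-fold lower, or 6.52% and 4.35%. Over all 576 repeat subfamilies with as many counts, the same fold was passed by 9.72% higher and by 8.16% lower, so neither share of members stood above its background. The counting interval lay above 0 for 5 members, or 10.9%, beside a background of 5.21%, and below 0 for 2, or 4.35%, beside 4.69%. Neither background was matched for counts, on which the width of an interval and the scatter of a ratio depend. The median log2 ratio of the members was 0.01, with the middle of the members between -0.02 and 0.05. That of all 576 was 0.01, with quartiles of -0.10 and 0.10. More of the 46 lay above 0 than below, 31 against 15, compared with 301 against 275 for all subfamilies, but this split turned with the scaling. It was 25 against 21 with the aligned library size as denominator, 28 against 18 on uniquely mapped counts, and 16 against 30 by FPKM, where the median of the members was -0.03.

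The members past the fold were all of low count, and 4 of 5 were AluY, which held 15 of the 46 compared. AluY rows were also mostly of low count, with a median of 232 counts in the control beside 6211 for AluS rows. AluSq4 had 274 counts in the control and 364 with vitC, a log2 ratio of 0.30 (0.06 to 0.53). AluYh3 had 239.9 and 315 counts, a log2 ratio of 0.28 (0.03 to 0.53). AluYk4 had 108 and 151 counts, a log2 ratio of 0.36 (0.00 to 0.74), and on uniquely mapped counts its interval reached 0. AluYj4, with 232 and 197 counts, was lower with vitC, with a log2 ratio of -0.35 (-0.63 to -0.07). AluYc3 had 159 and 133 counts and a log2 ratio of -0.37 (-0.72 to -0.03). The 4 AluY subfamilies were split evenly, with 2 higher and 2 lower.

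The rows with the most reads moved little. The AluY row had 13350.0 counts in the control and 14398 with vitC, a log2 ratio of -0.01 (-0.04 to 0.03). AluSx1 had 21828 and 23726 counts, a log2 ratio of 0.01 (-0.02 to 0.03), and the next 5 of AluS by counts, AluSx, AluSz, AluSq2, AluSp and AluSg, lay between -0.02 and 0.01. Among AluJ, AluJr had 12076 and 13616 counts and the log2 ratio furthest from 0, at 0.06 (0.02 to 0.09). AluJb had 19769 and 21724 counts and a log2 ratio of 0.02 (-0.01 to 0.05), AluJo 0.02 and AluJr4 0.00, so AluJr was the member of the group whose interval left out 0. AluSz6, with 6717 and 7523 counts, had a log2 ratio of 0.05 with an interval just above 0 that included 0 on uniquely mapped counts.

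AluYa5 and AluYb8, the subfamilies best known for recent insertions, had at most 649 counts in the 2 libraries together. AluYa5 had 299 counts in the control and 350.0 with vitC, a log2 ratio of 0.11 (-0.11 to 0.34). Its uniquely mapped counts were 196 and 260, a log2 ratio of 0.29 (0.02 to 0.57), so the larger difference was in the unique part, which was 65.5% of the counts in the control and 74.3% with vitC. AluYb8 had 276 and 313 counts, a log2 ratio of 0.07 (-0.17 to 0.31), and 0.12 (-0.15 to 0.39) on uniquely mapped counts. By the deposited FPKM the log2 ratio was -0.005 for AluYa5 and -0.05 for AluYb8, so the sign of both depended on the measure. At this depth a difference of either below about 1.2-fold could not be seen against counting error.

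None of the 6 SVA subfamilies had a counting interval that left out 0, and 3 lay above 0 and 3 below. SVA_D had 1164 counts in the control and 1254 with vitC, a log2 ratio of -0.01 (-0.12 to 0.11). SVA_F had 401 and 403 counts, a log2 ratio of -0.11 (-0.31 to 0.10), the lowest of the group. SVA_E had 192 and 199 counts and a log2 ratio of -0.07 (-0.36 to 0.23). SVA_B, SVA_C and SVA_A had log2 ratios of 0.06, 0.03 and 0.01. Among the monomers, FLAM_C had 3155 and 3297 counts, a log2 ratio of -0.05 (-0.12 to 0.02), and FLAM_A 1349.6 and 1392 counts, a log2 ratio of -0.07 (-0.18 to 0.04). FAM, at 0.02, and FRAM, at 0.00, lay on the other side of 0, and all 4 intervals included 0.

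**Figure D4:**
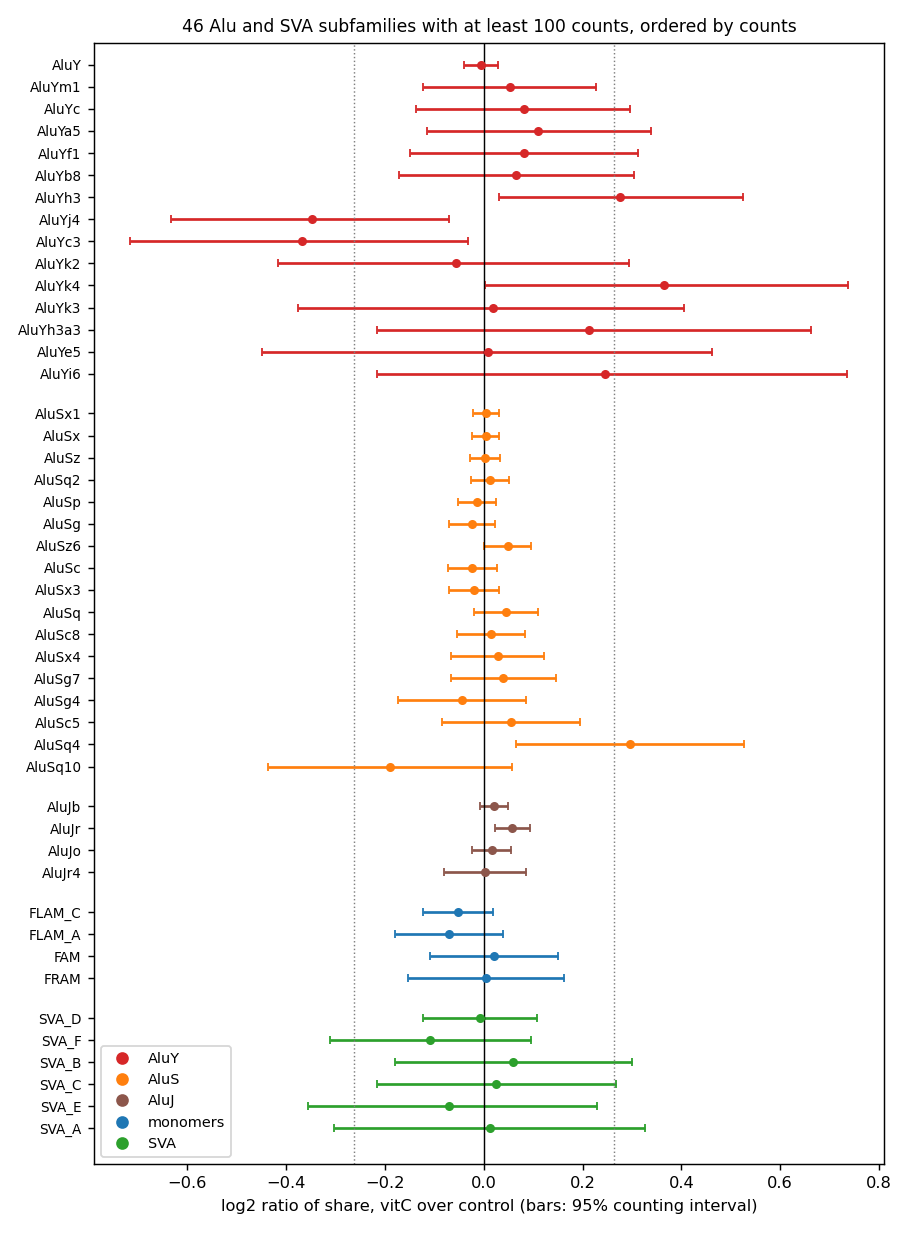
Log2 ratio of the share of repeat counts, vitC over control (x axis), for the 46 subfamilies with at least 100 counts, ordered by counts within each group, with bars for the 95% counting interval and dotted lines at 1.2-fold. The bars widen down each group as counts get fewer, and AluSq4 (0.30), AluYh3 (0.28), AluYk4 (0.36), AluYj4 (-0.35) and AluYc3 (-0.37) are the 5 points outside the dotted lines.

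The RNAs to which Alu is related were looked up in both tables. The repeat table had rows for 7SLRNA, with 1625 annotated copies, and BC200, with 186, but these and all others of the 85 rows of structural RNA classes were at 0 in both libraries, so no level was taken from them. The gene table did hold the 7SL RNA genes RN7SL1 and RN7SL2 and the gene BCYRN1 of the neuronal RNA BC200, which were chosen after those rows were seen at 0. Its variance-stabilised values were turned back into reads for this purpose. The recovered reads sum to more than the aligned library sizes, so 1 molecule may be counted more than once. The gene intervals may then be too narrow. RN7SL1 had 252 reads in the control and 448 with vitC, and RN7SL2 had 144 and 363. RN7SL3, also listed, had 2 and 8 reads and was left out below. As near-identical copies RN7SL1 and RN7SL2 share reads, so they were also summed. The sum was 396 and 811 reads, a share of gene reads 1.83-fold higher with vitC (1.62 to 2.07). Of 12125 genes with at least 100 reads, 44, or 0.363%, had a ratio as high or higher. BCYRN1 had 242 and 377 reads, a share 1.39-fold higher (1.18 to 1.64), and 2.88% of genes had a ratio as high or higher. The counts of RNAs transcribed by the same polymerase were too few to compare, with 4 and 7 reads for RMRP, 14 and 13 for RPPH1 and 0 in both libraries for VTRNA2-1. The labels name either rRNA depletion or an mRNA isolation kit, and how well these libraries captured such RNAs was not tested. The ratios thus compare what was captured in 1 library of each group.

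Genes that act on Alu and SVA were grouped into 4 lists. On the deposited variance-stabilised scale, none of their genes differed by 0.26 or more, and over all 20485 genes above the lowest value 0.0% were that much higher and 0.0488% that much lower. Since that scale compresses differences, the values below are log2 ratios of shares of recovered reads. Of the genes with at least 100 such reads, 10.1% were at least 1.2-fold higher with vitC and 6.23% lower, and the counting interval lay above 0 for 17.1% and below 0 for 13.0%. These shares were not matched for reads, and a gene with many reads has a narrow interval that can leave out 0 at a small ratio.

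The RNA polymerase III machinery, which transcribes Alu, had 20 of its 21 genes with at least 100 reads, and BDP1 was listed at 0. None was 1.2-fold higher and 1 was lower, POLR3F, a subunit of the enzyme, with 473 and 422 reads and a log2 ratio of -0.33 (-0.52 to -0.13). Counting intervals lay above 0 for MAF1, a repressor of this polymerase (0.13), and for GTF3C3 (0.12), and below 0 for POLR3F, for POLR3A, the largest subunit (-0.19), and for GTF3C1, the subunit of TFIIIC that binds the internal promoter (-0.22). SSB, the La protein that binds the ends of such transcripts, had 5961 and 6846 reads and a log2 ratio of 0.04, and GTF3C2 one of -0.06, both with intervals that included 0. The median of the list was -0.01, and that of all genes was 0.02.

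Of 14 genes for binding, editing and sensing of Alu RNA, 13 had at least 100 reads and none passed 1.2-fold in either direction. SRP9 and SRP14, which bind the Alu fold of 7SL RNA and Alu RNA as a pair, had log2 ratios of 0.04 and 0.07, with intervals that included 0. HNRNPC, which keeps Alu exons out of messenger RNA, had 18261 and 21012 reads and a log2 ratio of 0.04 (0.01 to 0.07). ADAR, which edits adenosines in paired Alu RNA, had 5898 and 5614 reads, and its log2 ratio of -0.23 (-0.29 to -0.18) was the lowest of the list. STAU1, at -0.13, and EIF2AK2, the kinase PKR, at -0.19, also had intervals below 0. NONO and DHX9, at -0.03 and 0.02, did not, and the list had a median of 0.00.

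Of 12 genes for repression of SVA, Alu and L1 that had at least 100 reads, none passed 1.2-fold, and ZNF93 was listed at 0. For 1 the interval lay above 0 and for 5 below, beside 17.1% and 13.0% of all genes, which were not matched for reads. ZNF91 and ZNF611, zinc finger proteins that bind SVA, had 600 and 676 reads with a log2 ratio of 0.01 (-0.15 to 0.17), and 192 and 203 reads with -0.08 (-0.37 to 0.21). TRIM28, their shared corepressor, had 13705 and 14771 reads and a log2 ratio of -0.05 (-0.09 to -0.02). DNMT3B and DNMT1, which methylate DNA, lay at -0.07 each, MPHOSPH8 at -0.14 and MORC2 at -0.13, while UHRF1, which guides DNMT1, lay at 0.09. Of the 9 dioxygenases whose activity responds to vitC, 1 was 1.2-fold lower, the histone demethylase KDM4D, with 81 and 65 reads and an interval that included 0 (-0.97 to 0.01). KDM3A lay at 0.19 with an interval above 0, KDM4A at 0.03 with one that included 0, and KDM3B (-0.12), TET1 (-0.11) and TET3 (-0.16) had intervals below 0.

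**Figure D5:**
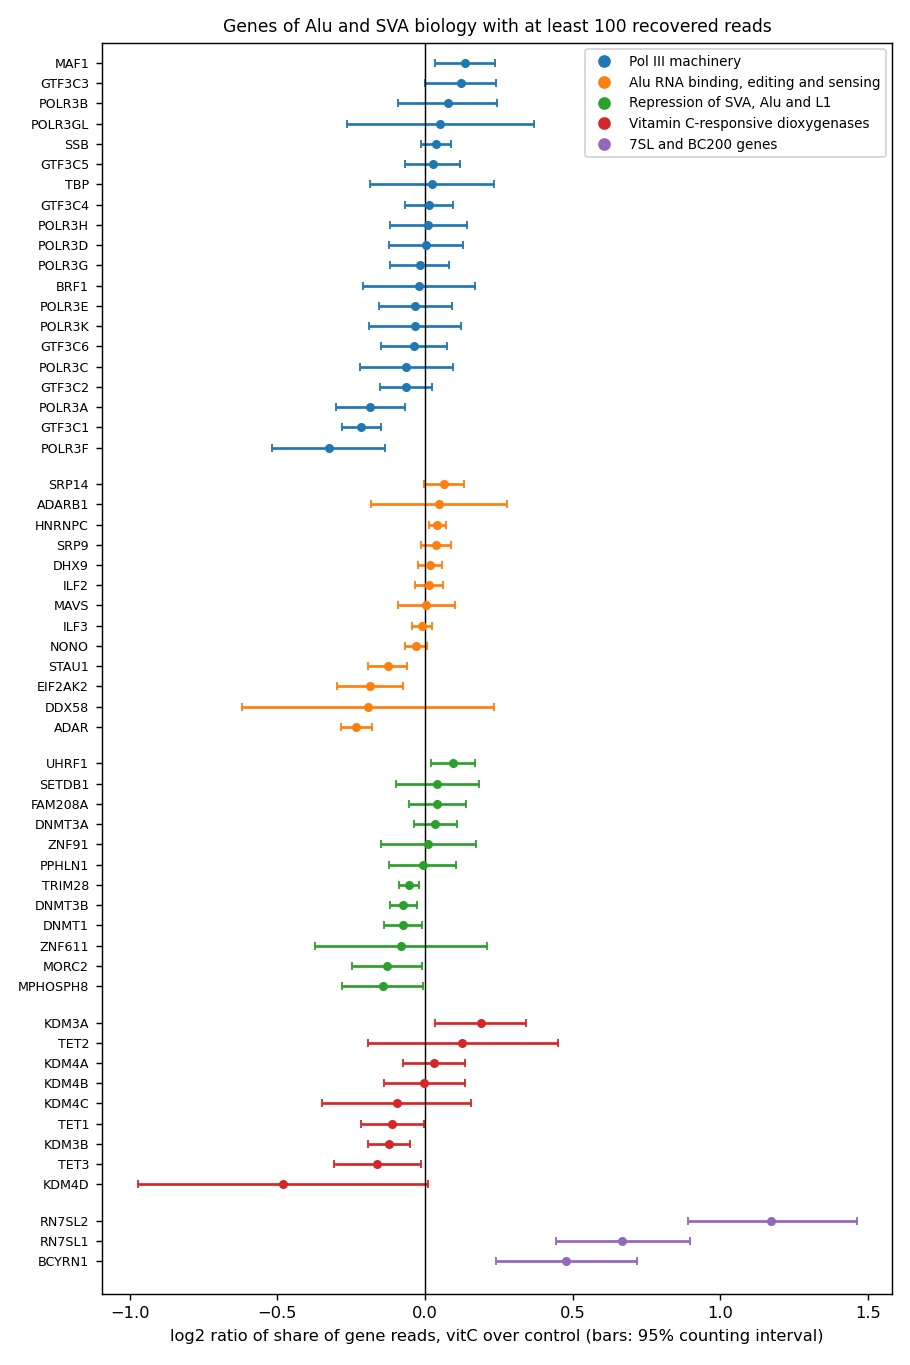
Log2 ratio of the share of gene reads, vitC over control (x axis), for the genes of the 4 lists and of 7SL and BC200 RNA with at least 100 recovered reads, with bars for the 95% counting interval. RN7SL2 (1.17), RN7SL1 (0.67) and BCYRN1 (0.48) lie to the right of every gene of the lists, whose points run from -0.48 for KDM4D to 0.19 for KDM3A.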

How the data were processed

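RNA was measured in 1 control and 1 vitC-treated hESC library, grouped by their labels. The study's methods name rRNA depletion and a directional library, and the labels name either rRNA depletion or an mRNA isolation kit. The authors mapped reads to hg38 and counted them per repeat subfamily with SQuIRE, whose version is not given in the sources used here. The submitters' processing notes name Trim Galore, HISAT2 and DESeq2. For each subfamily the authors deposited uniquely mapped counts, expected counts (multi-mapped reads are assigned among copies by expectation-maximisation), the aligned library size, annotated copies and FPKM values. The length behind the FPKM values is not given in the sources used here. The gene table deposited by the authors holds DESeq2 variance-stabilised values, near to a log2 scale. Left unused were 2 further per-sample columns and all mouse files.

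Shares of all repeat counts and their log2 ratios were computed in Python 3.11.15 with scipy 1.17.1 and pandas 2.3.3. Expected counts were rounded to whole numbers for the exact 95% Clopper-Pearson limits, which take the library totals as fixed. Intervals and the limit for a count of 0, set at 3 counts, cover counting error only, since reads are not independent molecules. Subfamilies with at least 100 counts in both libraries together were compared, and a fold of 1.2 was used for counts of members. The steps were tested on simulated independent counts and on values made by the same transformation that was undone. Such a test cannot show how they fare on shared or dependent reads. Gene reads were recovered by undoing the variance stabilisation, with the smallest step taken as 1 read. Of 38034 values over the lowest, 100% came out whole, within 0.01 of a read (in proportion above 1000 reads). The libraries held 15367652 and 17188555 such reads. These sums exceed the aligned library sizes of the repeat table, 8692246 and 9482130, so the 2 tables do not count in the same unit. The reason was not tested. All gene intervals are too narrow if 1 molecule was counted more than once.

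Named subfamilies were all SVA, monomer and AluJ rows, the 6 AluS and 6 AluY rows with the most counts, AluYa5, AluYb8, and any past the fold, and AluSz6, AluYh3a3, AluYi6, AluSc5 and the row named Alu were chosen after their values were seen. Named genes were those past 0.26 and up to 3 per list with the highest values, and others whose interval left out 0 or whose role was closest were chosen after their values were seen. Members, lists and tests were chosen with earlier results of these data known. Alternatives were other denominators, uniquely mapped counts, FPKM, other count minimums and a fold of 1.5.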

Additional observations from a re-analysis of the deposited data

How the results depend on the processing

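No paired analysis was possible because each group held 1 library and no result came from a test. With uniquely mapped counts, or with the median ratio, the counts of LINE, SINE, LTR and DNA classes or the aligned library size as denominator, the log2 ratio of each of the 5 groups moved by less than its counting interval. The deposited FPKM was not among these settings for the groups. By FPKM per 1000 copies, control and vitC, AluY (43.3 and 41.3) and AluS (58.6 and 57.5) were lower with vitC. AluJ (51.3 and 51.1) and the monomers (53.0 and 51.4) were also lower, and SVA (67.6 and 67.9) was higher. Of 155 alternative values for 31 named subfamilies, 149 stayed within the counting interval, and 6 moved, each under the deposited FPKM, which shifted the median of all subfamilies to -0.03: AluJb to -0.01, AluJr to 0.02, AluSq2, AluSx and AluSx1 to -0.03 and AluY to -0.08. Of the 155 values, 25 changed sign, and none of these was of a subfamily past the fold. The number of members at least 1.2-fold higher was 5 on uniquely mapped counts, 6 with no count minimum, and 0 with a minimum of 1000 counts or with a fold of 1.5. The number lower was 8 with no count minimum, and 0 with a minimum of 1000 counts or a fold of 1.5. Counts per 1000 annotated copies, which are not scaled for length, also moved. From all counts of the group they were 116 and 126 in the control and vitC for AluY, 172 and 186 for AluS, 139.7 and 154 for AluJ, 120.04 and 127 for the monomers, and 448 and 480.1 for SVA. From uniquely mapped counts they were 108 and 118 for AluY, 164 and 178 for AluS, 134 and 148 for AluJ, 116 and 122 for the monomers, and 369 and 393 for SVA. As a median over subfamilies, with no count minimum, they were 73.9 and 73.1 for AluY, 164 and 179.6 for AluS, 131 and 146 for AluJ, 111 and 116 for the monomers, and 371 and 393 for SVA. Over the 15 AluY rows with at least 100 counts, the median was 104 and 117. The median of the dioxygenase list was -0.02 on the deposited scale and -0.10 on recovered reads, an alternative chosen after seeing the data. The causes of these moves were not tested. Depth limits the rarer subfamilies, since AluYi6, with 156 counts in the 2 libraries the fewest of those compared, had a log2 ratio of 0.25 with an interval of -0.22 to 0.74.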
